A study of Mus musculus with 16 samples.

Results

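Double knockout (KO) heart, which lacks both Clpp and Fgf21, was compared with wild-type heart across all genes that passed a filter on low counts. The comparison used 8 of the 16 libraries of the series, 4 labelled dko and 4 labelled wt, and 15255 of 36499 gene entries passed the filter, which asked for at least about 10 counts in a library of median size, in at least 4 libraries. The series holds messenger RNA sequencing of mouse cardiac tissue in 4 genotypes, the other 2 being the single Fgf21 KO and the single Clpp KO, and its title asks how FGF21 bears on the response to mitochondrial dysfunction. All mice were fed a normal chow diet. The double KO came from animals with floxed alleles of both genes (Clpp fl/fl Fgf21 fl/fl) crossed to mice with Cre recombinase under the β-actin promoter, so both genes were deleted throughout the body and not in cardiomyocytes alone. The Clpp KO was bred by intercrossing Clpp+/- mice from a like cross. The labels give no further allele for wild type, no age and no sex, and they do not say that each library came from its own animal. The p-values below therefore measure the spread between libraries, which may be technical.

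CLPP cuts the unfolded proteins that its partner CLPX feeds to it, and together they form the protease ClpXP inside mitochondria. Damage to mitochondria is known to raise the integrated stress response, in which ATF4, ATF5 and related factors raise enzymes of serine, one-carbon and asparagine synthesis together with the secreted hormones FGF21 and GDF15, and release of mitochondrial nucleic acids is known to raise type I interferon target genes. FGF21 acts through FGF receptors with the co-receptor β-Klotho.

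The targeted genes were read first. Clpp (chr17:56990305-56996188, GRCm38) stood at 31.7, 28.9, 30.8 and 43.2 CPM (counts relative to library size, scaled between libraries by the trimmed mean of M-values, TMM) in wild-type replicates 1 to 4 and at 7.26, 7.64, 8.97 and 9.40 CPM in double KO replicates 1 to 4. All 4 double KO libraries lay below all 4 wild-type libraries, and Clpp fell by 2.02 ± 0.16 on the log2 scale (standard error; edgeR's quasi-likelihood test, Benjamini-Hochberg adjusted p = 2.4e-06). Fgf21 (chr7:45613886-45615490) had 0 counts in every double KO library and 1, 0, 5 and 0 counts in wild type, which is too few for the filter and for a fold change, since 0 counts allow up to 3. In heart it was thus near the limit of detection in wild type too. The single Clpp KO had 21, 6, 28 and 14 counts of Fgf21 in replicates 1 to 4.

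Library totals were 36260545 to 48608884 counts. The summed level of 13 ventricular cardiomyocyte markers was 50926.9 to 57583.4 CPM in double KO and 51177.3 to 54098 CPM in wild-type replicates 1, 3 and 4, but 31127 CPM in wild-type replicate 2. Wild-type replicates 2 and 4 stood apart: their summed level of 11 atrial cardiomyocyte markers was 10611 and 6746 CPM against 132 and 122 CPM in replicates 1 and 3 and 200.6 to 1557 CPM in double KO, and their white adipocyte markers summed to 58.6 and 174 CPM against 8.21 to 14.1 CPM in double KO. The summed level of 4 Y-linked genes was 2.29 CPM in wild-type replicate 2, 35.3 CPM in wild-type replicate 4 and 60.8 to 78.8 CPM in the other 6 libraries. Wild-type replicates 1 and 3 were far closer to each other than any other pair. Their chi-square per degree of freedom was 5.68, against 116 to 408 for the other wild-type pairs and 26.3 to 75.1 for the double KO pairs. The median chi-square over genes was 0.857, against 12.6 to 38.3 and 1.63 to 6.29. They were kept as separate libraries, though the labels do not say that they came from separate animals. In bulk tissue, fewer cells of a type and less RNA per cell cannot be told apart. For lists and genes named below, values without wild-type replicates 2 and 4 are given where leaving them out ended a call, and in some other cases.

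Of the 15255 genes tested, 233 (1.53%) differed between double KO and wild type at an adjusted p under 0.05, which is what called means below. There were 160 higher (1.05%) and 73 lower (0.479%) in double KO. Without wild-type replicates 2 and 4 there were 148 calls of 15540 genes tested, 124 higher and 24 lower, and 96 of the 233 were among them. A fit of the 8 libraries alone, with no spread borrowed from the single KOs, called 56 of 14574 genes tested, 53 of them among the 233. It called 30 of the 58 called genes that the naming rule picked. The 28 that missed it there were Ifih1, H2-K1, Tap1, Atf5, Trib3, Asns, Mthfd2, Slc7a5, Nars, Iars, Txnrd1, Sqstm1, Acta1, Vmn2r3, Mamstr, Mterf4, S100a8 and 11 of the 12 largest falls. The 12 largest rises by the naming rule, of genes with a mean of at least 1 CPM and no overlap between groups, were Kcnj14 (an inward rectifier potassium channel), the glutathione S-transferases Gsta2 and Gsta1, Apol9a and Apol9b of the apolipoprotein L family, the interferon targets Usp18, Ifit1 and Ifit3b, the mitochondrial mRNA mt-Nd3, Cdh4 (a cadherin), Ush1c and Mthfd2. Of these, Cdh4 belongs to no group below: it stood at 2.44, 0.604, 2.40 and 0.820 CPM in wild type and at 11.9, 7.01, 11.3 and 11.2 CPM in double KO. The groups did not overlap, and it rose by 2.72 ± 0.35 on the log2 scale (edgeR adjusted p = 0.000634). The median log2 fold change over all genes was -0.01, and library size alone as the scale moved it to -0.92, so a change below is one relative to that median.

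**Figure D1:**
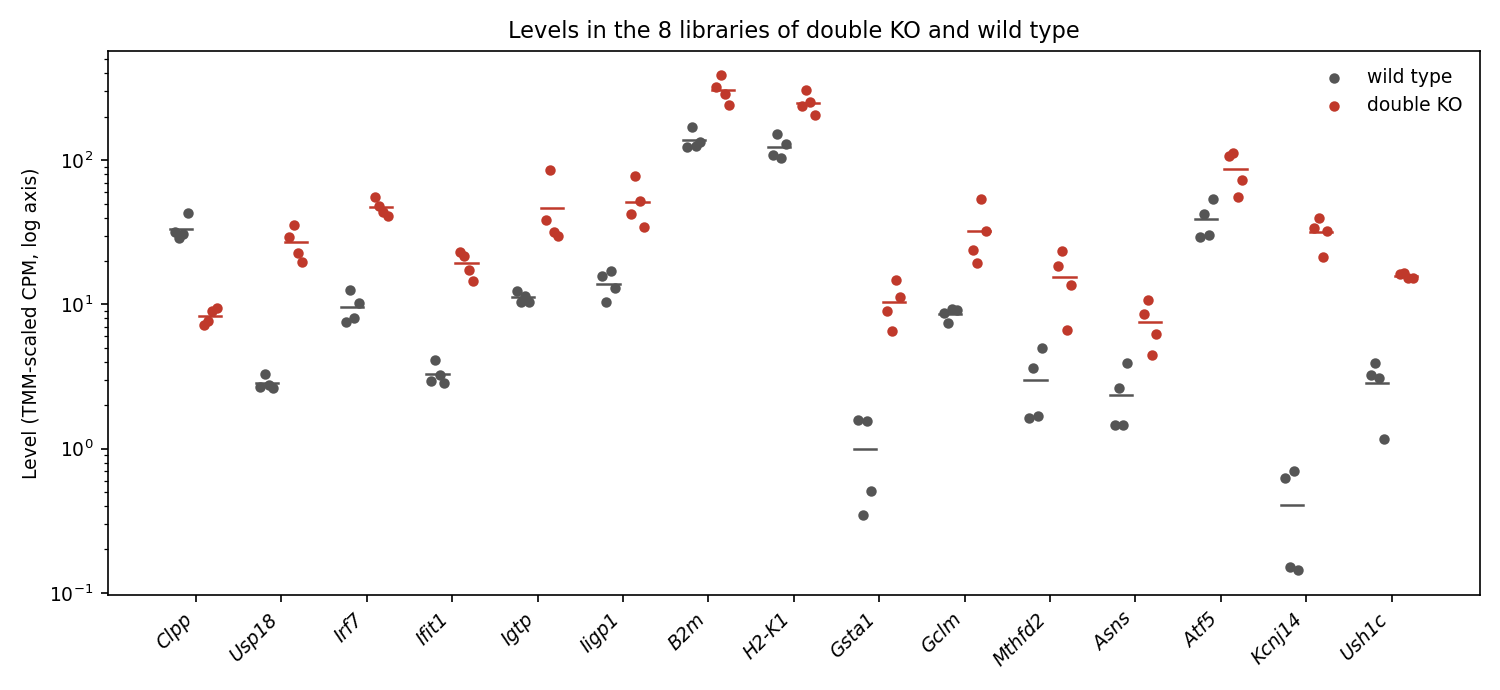
Level of 15 genes in each library (TMM-scaled CPM, log axis), with 1 point per library, grey for wild type and red for double KO, and a bar at the mean of 4. Clpp was lower in all double KO libraries, and the other 14 genes were higher in all 4 double KO libraries than in any wild-type library.

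The 13 mRNAs encoded in mitochondrial DNA (mtDNA) took a larger part of the counts in double KO. These mRNAs code for subunits of respiratory complexes I, III and IV and of ATP synthase. Their share was 39.1%, 25.5%, 39.4% and 28.9% of all counts in wild-type replicates 1 to 4 and 58.6%, 56.1%, 59.7% and 60.8% in double KO. All double KO libraries lay above all wild-type libraries, with means of 58.8% ± 1.99 against 33.2% ± 7.09 (SD, n = 4 each) and a difference of 25.5 percentage points (exact permutation test, two-sided p = 0.0286, the smallest that 4 against 4 can give). Without wild-type replicates 2 and 4, the low ones, the difference was 19.5 points. With the close wild-type replicates 1 and 3 summed it was 27.5 points (exact permutation p = 0.0571, the smallest possible there). In the gene-wise test 11 of the 13 mRNAs rose, against 1.53% of all genes called, with a median log2 fold change of 1.74 (0.93 on library size alone). Without wild-type replicates 2 and 4 there were 10 calls and a median of 1.3, and the 8 libraries alone gave 5 calls.

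Among them, mt-Nd1, a complex I subunit that shares no 31-base stretch with another annotated transcript, stood at 23497, 10178, 23149 and 15498 CPM in wild type and at 58431, 54672, 68821 and 70747 CPM in double KO. It rose by 1.80 ± 0.24 on the log2 scale (edgeR adjusted p = 0.000623), with no overlap between groups. The mRNA of cytochrome b, mt-Cytb, rose by 1.44 ± 0.23 (edgeR adjusted p = 0.00313). The uncalled members were mt-Nd5 and mt-Nd6, at log2 fold changes of 1.49 and 0.87. Much of the set has near-identical nuclear copies: 99.5% of the 31-base stretches of mt-Atp6, 100% of those of mt-Co2 and 63.9% of those of mt-Co1 occur in another transcript, so the division of their reads is uncertain. The single Clpp KO, tested against the same wild-type libraries, had 11 of the 13 mRNAs higher, where 1.08% of all genes were, and a median of 1.54.

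The complex I mRNA mt-Nd3 needed its copy counted with it. The first 40 bases of mt-Nd3 and of Gm28438, a nuclear copy with 1 mismatch over 345 aligned bases, are shown because the mismatch, T3C counted from the first base of mt-Nd3 (capital letter), is all that separates them over their aligned length.
mt-Nd3: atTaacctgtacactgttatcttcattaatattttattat
Gm28438: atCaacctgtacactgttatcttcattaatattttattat
The level given to mt-Nd3 was 2302, 1332, 2103 and 1699 CPM in wild type and 11650, 10847, 15886 and 14448 CPM in double KO, a log2 fold change of 2.83 ± 0.21 (edgeR adjusted p = 1.35e-06). The copy took 29.3% to 37.4% of the summed level of both entries in the wild-type libraries, 40.5% to 50.0% in Clpp KO, at most 0.985% in Fgf21 KO and at most 0.149% in double KO. Summing the entries, an alternative added after the data were seen, left a rise of 2.20 ± 0.22 over wild type (edgeR adjusted p = 2.45e-05). It ended the call against Clpp KO, from 1.44 (adjusted p = 0.00529) to 0.57 ± 0.21 (adjusted p = 0.994).

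**Figure D2:**
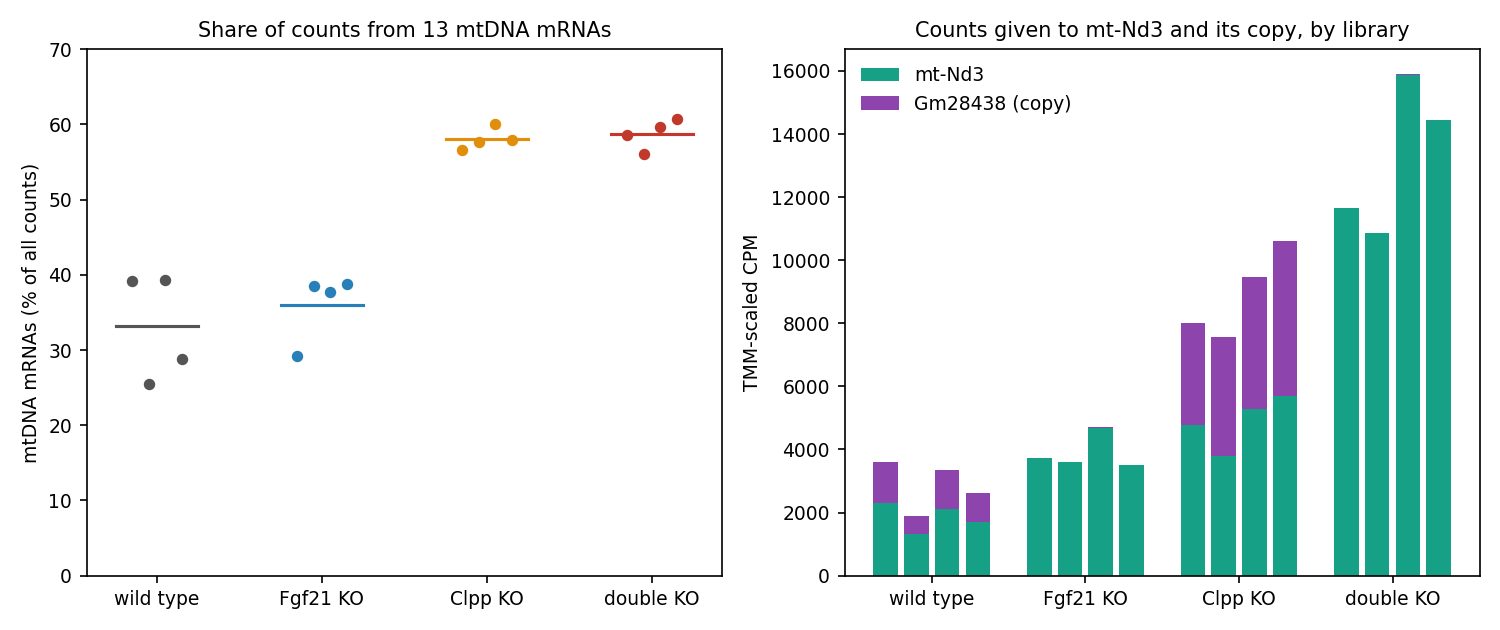
Left, share of counts from the 13 mtDNA mRNAs in each library of the 4 genotypes, with a bar at the mean; double KO libraries lie at 56.1% to 60.8% and wild-type libraries at 25.5% to 39.4%. Right, TMM-scaled CPM given to mt-Nd3 and to its copy Gm28438 in each library, stacked in replicate order; the copy is near 0 in Fgf21 KO and double KO.

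Interferon target genes rose in double KO heart. They were split into 4 lists of effectors, signalling and sensing, GTPases and antigen presentation. Of their 112 tested members 45 were called, all higher, where 1.05% of all genes were. Type I interferon is known to act through the factor complex ISGF3, which binds the interferon-stimulated response element, searched here as GAAA, any 2 bases and GAAA again, on both strands, in RefSeq promoter windows of 300 bases (250 before to 50 after the start, GRCm38.p6). It occurred in the windows of 18 of the 33 called members that had one (54.5%), in 16 of 51 uncalled members (31.4%) and in 3.99% of all 27025 genes with a window. Windows of Ifit1 (chr19:34640639-34640938, + strand), Ifit3 (chr19:34583279-34583578, + strand) and B2m (chr2:122147437-122147736, + strand) are shown 5′ to 3′ because they are called members of the effector and antigen presentation lists that hold a match, with each match in capitals, as the motif or its reverse complement. A match describes the letters of the window and is no measurement of binding.
Ifit1: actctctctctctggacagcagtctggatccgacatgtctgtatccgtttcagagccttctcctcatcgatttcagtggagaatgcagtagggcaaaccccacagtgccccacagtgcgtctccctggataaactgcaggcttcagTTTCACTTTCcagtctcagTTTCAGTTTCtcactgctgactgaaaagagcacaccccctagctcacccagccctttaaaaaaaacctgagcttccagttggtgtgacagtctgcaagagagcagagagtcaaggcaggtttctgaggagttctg
Ifit3: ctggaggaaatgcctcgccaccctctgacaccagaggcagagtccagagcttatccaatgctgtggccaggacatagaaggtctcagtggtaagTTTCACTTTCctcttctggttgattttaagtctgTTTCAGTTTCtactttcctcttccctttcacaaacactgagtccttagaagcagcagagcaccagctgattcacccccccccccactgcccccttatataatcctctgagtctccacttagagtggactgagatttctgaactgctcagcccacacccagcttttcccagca
B2m: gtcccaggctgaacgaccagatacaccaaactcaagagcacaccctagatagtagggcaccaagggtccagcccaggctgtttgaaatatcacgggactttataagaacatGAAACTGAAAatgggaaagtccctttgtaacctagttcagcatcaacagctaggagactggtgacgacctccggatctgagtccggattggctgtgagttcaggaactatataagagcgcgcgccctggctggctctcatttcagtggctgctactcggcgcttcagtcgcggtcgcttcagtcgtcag

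Of 46 effector genes tested, 22 rose and none fell, against 1.05% of all genes higher. Their median log2 fold change was 0.60, which became -0.34 on library size alone, where all genes had -0.92. Ifit1, which binds viral RNA, stood at 2.95, 4.10, 3.22 and 2.87 CPM in wild type and at 23.2, 21.7, 17.4 and 14.6 CPM in double KO. The groups were far apart, and Ifit1 rose by 2.55 ± 0.18 on the log2 scale (edgeR adjusted p = 1.34e-06). Oasl1, an oligoadenylate synthetase-like protein, rose by 2.29 ± 0.19 (edgeR adjusted p = 5.93e-06) and Lgals3bp by 1.61 ± 0.14 (edgeR adjusted p = 8.38e-06). Apol9a and Apol9b rose by 4.33 ± 0.53 and 2.98 ± 0.39, and Ifit3 and Ifit3b by 2.33 ± 0.22 and 2.39 ± 0.25. The members of each of those pairs share sequence (64.9% of the 31-base stretches of Apol9b and 61.8% of those of Ifit3 lie in the partner), so their division is uncertain. Among uncalled members, Ifitm3 had a log2 fold change of -0.31 and Ifi27l2a one of -0.55. The same list gave 22 rises without wild-type replicates 2 and 4, and 18 of the 22 first called were among them. The 8 libraries alone gave 11.

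Of 28 genes of interferon signalling and nucleic acid sensing, 6 rose (21.4%, against 1.05% of all genes). Their list had a median of 0.22 (-0.67 on library size alone), and 5 of the 6 stayed called without wild-type replicates 2 and 4. Usp18, the feedback inhibitor of the type I interferon receptor, had the smallest p of all genes. Its level was 2.69, 3.30, 2.78 and 2.64 CPM in wild type and 29.5, 35.8, 22.7 and 19.8 CPM in double KO. Every double KO library was far above every wild-type library, and the rise was 3.24 ± 0.17 on the log2 scale (edgeR adjusted p = 2.12e-08). Irf7, the factor that amplifies interferon output, stood at 7.55, 12.5, 8.04 and 10.2 CPM in wild type and 55.9, 48.0, 43.6 and 40.8 CPM in double KO, again without overlap, and rose by 2.30 ± 0.18 (edgeR adjusted p = 2.4e-06). Ifih1, which codes for the double-stranded RNA sensor MDA5, rose by 1.25 ± 0.18 (edgeR adjusted p = 0.00144). Its adjusted p in the 8 libraries alone was 0.056.

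The interferon-inducible GTPases of the GBP and IRG families act on membranes around intracellular pathogens. Of 17 tested, 8 rose (47.1%, against 1.05% of all genes), with a median of 1.24 (0.36 on library size alone). All 17 had a positive log2 fold change, and the groups did not overlap for 15, against 9.85% of all genes. Igtp stood at 12.5, 10.4, 11.5 and 10.3 CPM in wild type and at 38.2, 85.6, 31.6 and 30.0 CPM in double KO. Double KO replicate 2 was well above the other 3, and the rise was 2.05 ± 0.30 (edgeR adjusted p = 0.0018). Iigp1 rose by 1.89 ± 0.26 (edgeR adjusted p = 0.000846) and Irgm1 by 1.31 ± 0.16 (edgeR adjusted p = 0.000348). Without wild-type replicates 2 and 4, 4 of the 8 calls were left. Igtp then had a log2 fold change of 1.95, close to its first value, with an edgeR adjusted p of 0.0619.

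Genes of MHC class I antigen presentation serve the display of peptides to CD8 T cells. Of 21 tested, 9 rose (42.9%, against 1.05% of all genes), with a median of 0.68 (-0.27 on library size alone). The list had 7 calls without wild-type replicates 2 and 4, 5 of them among the first 9, and a median of 0.81, while the 8 libraries alone gave 4 calls. The light chain B2m stood at 124, 170, 125 and 134 CPM in wild type and at 320, 387, 287 and 242 CPM in double KO. The groups did not overlap, and B2m rose by 1.16 ± 0.16 on the log2 scale (edgeR adjusted p = 0.000731). The heavy chain H2-K1 rose by 1.02 ± 0.16 (edgeR adjusted p = 0.00261) and the peptide transporter subunit Tap1 by 0.95 ± 0.16 (edgeR adjusted p = 0.00466). In the 8 libraries alone the adjusted p of both was 0.063. Markers of macrophages and monocytes had no call among 14, their summed level was 181 to 261 CPM in double KO and 158 to 308 CPM in wild type. The median of these markers was 0.08, and 0.50 without wild-type replicates 2 and 4, the highest wild-type libraries. Cd163, a scavenger receptor, was then called, at 0.88 (edgeR adjusted p = 0.0223), while the complement genes C1qa and C1qb were uncalled at 0.69 and 0.70. The part of these cells in the interferon result was not tested.

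Of the integrated stress response, 3 of 24 genes rose (12.5%), against 1.05% of all genes. Its factors act through the C/EBP-ATF response element, searched as TGATGNAA on both strands, which 3 of the 6 called members of 4 stress and amino acid lists that had a window held (50%), as did 13 of 59 uncalled members (22%) and 4.51% of all genes. The windows of Asns (chr6:7693160-7693459, - strand) and Trib3 (chr2:152344011-152344310, - strand) are shown because both genes were called and hold a match, which is in capitals.
Asns: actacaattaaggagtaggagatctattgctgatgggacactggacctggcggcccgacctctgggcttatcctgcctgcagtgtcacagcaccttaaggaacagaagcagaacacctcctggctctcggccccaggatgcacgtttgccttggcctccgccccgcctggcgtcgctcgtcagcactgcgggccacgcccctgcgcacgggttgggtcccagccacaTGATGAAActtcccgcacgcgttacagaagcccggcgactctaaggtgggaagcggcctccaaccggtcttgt
Trib3: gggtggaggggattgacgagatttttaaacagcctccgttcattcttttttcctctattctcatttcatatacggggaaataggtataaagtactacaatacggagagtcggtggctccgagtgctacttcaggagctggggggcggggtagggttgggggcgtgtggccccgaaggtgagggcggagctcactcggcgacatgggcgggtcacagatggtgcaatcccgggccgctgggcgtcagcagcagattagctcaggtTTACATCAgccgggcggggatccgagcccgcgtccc

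The median of these 24 genes was 0.20 (-0.69 on library size alone). Those that rose were the kinase Eif2ak2, which is also an interferon target, the factor Atf5 and the pseudokinase Trib3. Eif2ak2 rose by 0.84 ± 0.13 relative to the other genes (edgeR adjusted p = 0.0024), though on library size alone its log2 fold change was -0.07. Atf5 stood at 29.4, 42.4, 30.4 and 54.1 CPM in wild type and at 106, 111, 55.3 and 72.8 CPM in double KO, where the lowest double KO library was just above the highest wild-type one. It rose by 1.15 ± 0.22 (edgeR adjusted p = 0.0147, and 0.0527 without double KO replicate 2). Without wild-type replicates 2 and 4 the rise of Atf5 was 1.53 (edgeR adjusted p = 0.00631). Trib3, at a log2 fold change of 1.10 ± 0.25 (edgeR adjusted p = 0.0356), overlapped between groups and lost its call without any 1 of 4 libraries (wild-type replicate 4 and double KO replicates 1, 2 and 4). Its log2 fold change was 1.29 and its edgeR adjusted p 0.0934 without wild-type replicates 2 and 4. Gdf15, the other mitokine, had a log2 fold change of 1.10 (edgeR adjusted p = 0.279), and none of 19 mitokine, FGF receptor and ERK feedback genes was called.

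In serine, one-carbon, asparagine and proline synthesis, 2 of 27 genes rose (7.41%, against 1.05% of all genes), with a median of 0.13 (-0.76 on library size alone). Mthfd2, the mitochondrial folate enzyme, stood at 1.63, 3.61, 1.69 and 4.98 CPM in wild type and at 18.5, 23.4, 6.64 and 13.6 CPM in double KO. All double KO libraries were above wild type, with replicate 3 the nearest, and the rise was 2.39 ± 0.40 (edgeR adjusted p = 0.00656, and 0.1 in the 8 libraries alone). Asns, asparagine synthetase, stood at 1.45, 2.63, 1.45 and 3.93 CPM in wild type and at 8.56, 10.8, 4.47 and 6.29 CPM in double KO. It too did not overlap, and rose by 1.68 ± 0.31 (edgeR adjusted p = 0.0123, and 0.16 in the 8 libraries alone). Without wild-type replicates 2 and 4, Mthfd2 rose by 3.22 (edgeR adjusted p = 0.00432) and Asns by 2.37 (edgeR adjusted p = 0.00136). The list then had 4 rises, where 124 of 15540 genes tested were higher. Phgdh, which opens serine synthesis, had a log2 fold change of 1.56 and an adjusted p of 0.0884 by edgeR. The cytosolic tRNA synthetases Nars and Iars had log2 fold changes of 0.48 and 0.60 and were the 2 called of 20 members (10%, against 1.05% of all genes). On library size alone both values were negative, at -0.39 and -0.25, and neither call held without double KO replicate 1 or 2. The call of Nars was also lost without double KO replicate 4, and that of Iars without wild-type replicate 2 or 4 or double KO replicate 3. With wild-type replicates 2 and 4 left out together both values were 0.36, with edgeR adjusted p of 0.066 for Nars and 0.224 for Iars, so no cytosolic synthetase was called there. The amino acid transporter Slc7a5 rose by 1.16 ± 0.23 (edgeR adjusted p = 0.017, and 0.0587 without double KO replicate 2), the only call among 16 transporters. Without wild-type replicates 2 and 4 it rose by 1.52 (edgeR adjusted p = 0.00185). The transporters then had 2 rises, and their median moved from -0.05 to 0.49. None of 17 mitochondrial tRNA synthetases was called. Lars2 was listed at 366, 2845, 3143 and 413 CPM in double KO and 192 to 270 CPM in wild type, with double KO replicates 2 and 3 far above all others.

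The single Clpp KO gives a second set of values for the same stress genes. That comparison shares the 4 wild-type libraries with the one described here, and it called 249 genes (1.63%). In Clpp KO against wild type the log2 fold change of Mthfd2 was 3.84, that of Asns 3.10, that of Phgdh 3.29, that of Atf5 2.07 and that of Gdf15 2.42. Called members numbered 7 of 27 in serine, one-carbon, asparagine and proline synthesis and 10 of 20 cytosolic tRNA synthetases there, against 2 and 2 in double KO. These counts are from the fit of all libraries. Without wild-type replicates 2 and 4, double KO had 4 calls in the synthesis list and 0 among the synthetases. The direct test of double KO against Clpp KO gave -1.45 for Mthfd2 (edgeR adjusted p = 0.698), -1.42 for Asns (adjusted p = 0.234) and -0.92 for Atf5 (adjusted p = 0.437), so no difference passed for these 3. That test called no member of either list, where it called 0.059% of all genes. The medians over wild type were 0.39 in double KO and 0.54 in Clpp KO for the synthetases, and 0.13 and 0.18 for the synthesis genes. Of the interferon genes, Usp18 had 3.24 in double KO and 3.40 in Clpp KO, Irf7 2.30 and 2.18, and Ifit1 2.55 and 2.62.

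**Figure D3:**
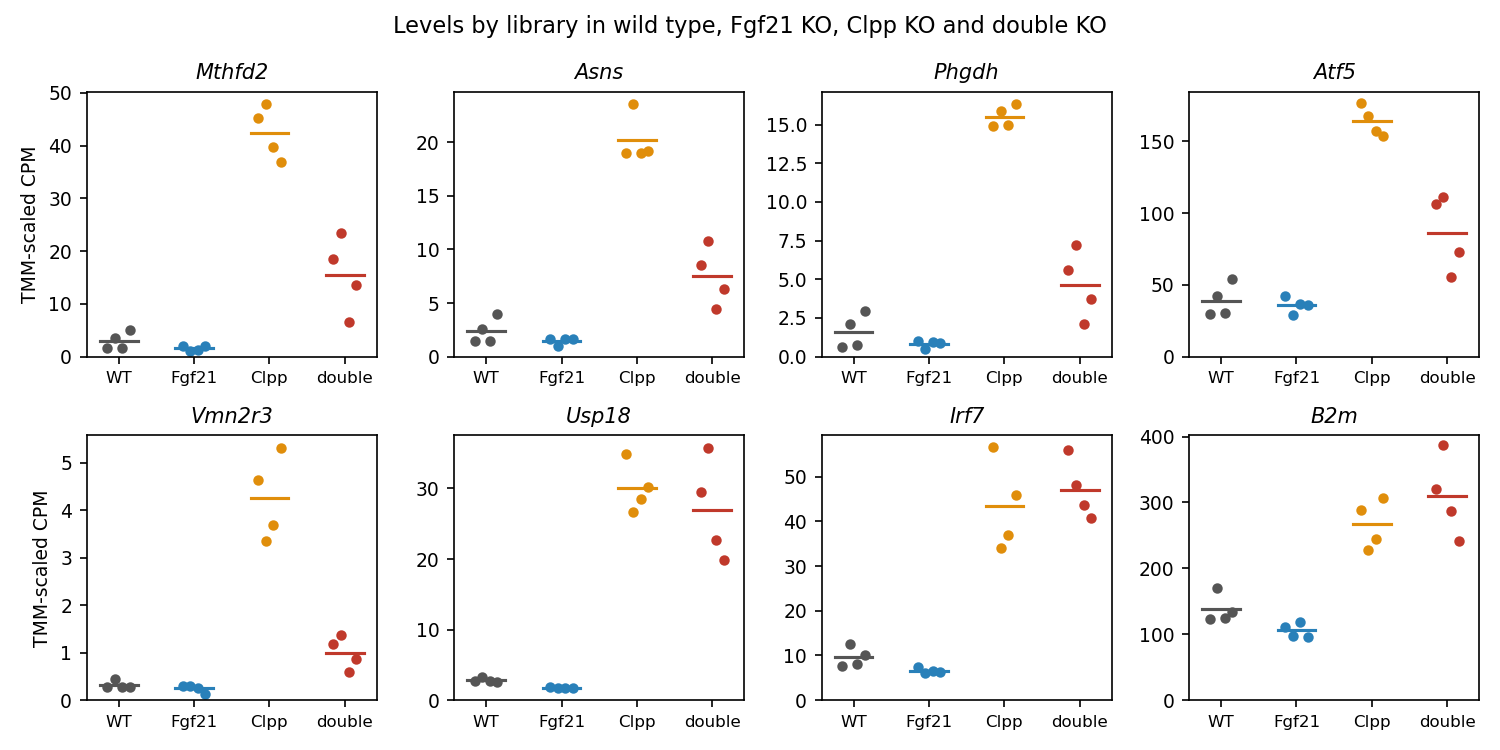
Levels of 8 genes in each library of wild type (WT), Fgf21 KO (Fgf21), Clpp KO (Clpp) and double KO (double), in TMM-scaled CPM, with 1 point per library and a bar at the mean of 4. The means of Mthfd2, Asns, Phgdh, Atf5 and Vmn2r3 are highest in Clpp KO with double KO between it and wild type, while the libraries of Usp18, Irf7 and B2m overlap between Clpp KO and double KO.

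Targets of NRF2, the factor that answers oxidative and electrophilic stress, were listed with genes of glutathione metabolism. Of 37 tested, 9 rose (24.3%, against 1.05% of all genes), with a median of 0.30 (-0.59 on library size alone). Of the 9, 7 stayed called without wild-type replicates 2 and 4. The antioxidant response element that NRF2 binds was searched as TGACNNNGC on both strands, and 4 of the 7 called members with a window held it (57.1%), against 8 of 25 uncalled members (32%) and 14% of all genes. The window of Gclm (chr3:122245307-122245606, + strand) is shown because Gclm codes for the regulatory subunit of the enzyme that starts glutathione synthesis, with the match in capitals.
Gclm: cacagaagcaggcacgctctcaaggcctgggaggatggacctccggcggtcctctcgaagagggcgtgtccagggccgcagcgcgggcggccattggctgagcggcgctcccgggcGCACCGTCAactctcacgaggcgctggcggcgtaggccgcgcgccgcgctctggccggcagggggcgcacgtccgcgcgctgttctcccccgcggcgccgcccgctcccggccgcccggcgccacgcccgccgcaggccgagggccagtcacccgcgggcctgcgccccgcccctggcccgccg
Gsta1 and Gsta2, glutathione S-transferases of the alpha class, had the largest rises of the list. The level of Gsta1 was 1.58, 0.347, 1.55 and 0.512 CPM in wild type and 8.99, 6.55, 14.9 and 11.2 CPM in double KO, with no overlap and a log2 fold change of 3.38 ± 0.41 (edgeR adjusted p = 0.000403). Gsta2 rose by 4.37 ± 0.46 (edgeR adjusted p = 6.12e-05). Reads of both are hard to divide, since 92.9% of the 31-base stretches of Gsta1 and 60.7% of those of Gsta2 occur in other transcripts. Gsta4 rose by 1.00 ± 0.14 (edgeR adjusted p = 0.00114). Gclm rose by 1.91 (edgeR adjusted p = 0.0156), with 1.85 and an adjusted p of 0.174 without wild-type replicates 2 and 4, and the quinone reductase Nqo1 by 1.56 (edgeR adjusted p = 0.021). Txnrd1, a thioredoxin reductase, rose by 0.84 ± 0.16 relative to the other genes (edgeR adjusted p = 0.0136), though it stood at -0.02 on library size alone. Hmox1, another known target, was not called, at -0.45. The autophagy receptor Sqstm1 stood at 210, 160, 205 and 222 CPM in wild type and 406, 377, 817 and 478 CPM in double KO, with no overlap, and rose by 1.38 ± 0.26 (edgeR adjusted p = 0.0136). The log2 fold change of Sqstm1 without wild-type replicates 2 and 4 was 1.32, close to the first value, with an edgeR adjusted p of 0.129.

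Genes around Fgf21 on chromosome 7 were among the calls. Within 1 Mb of Fgf21 9 of 77 tested genes were called (11.7%, 5 higher and 4 lower), from 1 to 10 Mb away 6 of 84 (7.14%), on the rest of the chromosome 17 of 1058 (1.61%) and on all other chromosomes 199 of 13827 (1.44%). These windows were chosen after values had been seen, and the shares were not tested against each other. In Clpp KO, whose Fgf21 locus was not targeted, 1 of the 77 genes was called (1.3%), and in Fgf21 KO 4 of them were, out of 7 calls in that comparison (0.0459% of genes tested). Of the 9 in double KO, 6 stayed called without wild-type replicates 2 and 4, and Cpt1c, Fam83e and Izumo1 did not. Kcnj14, 206 kb from Fgf21, stood at 0.623, 0.151, 0.698 and 0.143 CPM in wild type and at 33.9, 39.7, 21.3 and 32.5 CPM in double KO. It was near 0 in all wild-type libraries, and rose by 6.29 ± 0.43 on the log2 scale (edgeR adjusted p = 1.34e-06), with 6.57 in Fgf21 KO and -0.54 in Clpp KO. Its pseudogene Gm5522 holds 35.6% of its 31-base stretches.

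Ush1c, a scaffold protein of hair cells and microvilli 602 kb away, stood at 3.26, 3.91, 3.08 and 1.17 CPM in wild type and at 16.1, 16.5, 15.3 and 15.3 CPM in double KO. Its 4 double KO libraries were nearly equal and well above wild type, and it rose by 2.46 ± 0.28 (edgeR adjusted p = 0.000198), with 2.49 in Fgf21 KO and 0.07 in Clpp KO. Bcat2 codes for the aminotransferase that starts branched-chain amino acid breakdown in mitochondria. It lies 35 kb away and rose by 1.11 (edgeR adjusted p = 0.00941), with 1.34 in Fgf21 KO. Mamstr, a coactivator of MEF2 29 kb away, fell by 1.25 ± 0.18 (edgeR adjusted p = 0.00146), with -1.27 in Fgf21 KO and -0.57 in Clpp KO. Ccdc114, 322 kb away, fell by 1.62 ± 0.28 (edgeR adjusted p = 0.00596). Atf5 itself lies 800 kb from Fgf21, which places it inside this window. Its log2 fold change was -0.11 in Fgf21 KO (edgeR adjusted p = 0.856) and 2.07 in Clpp KO.

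**Figure D4:**
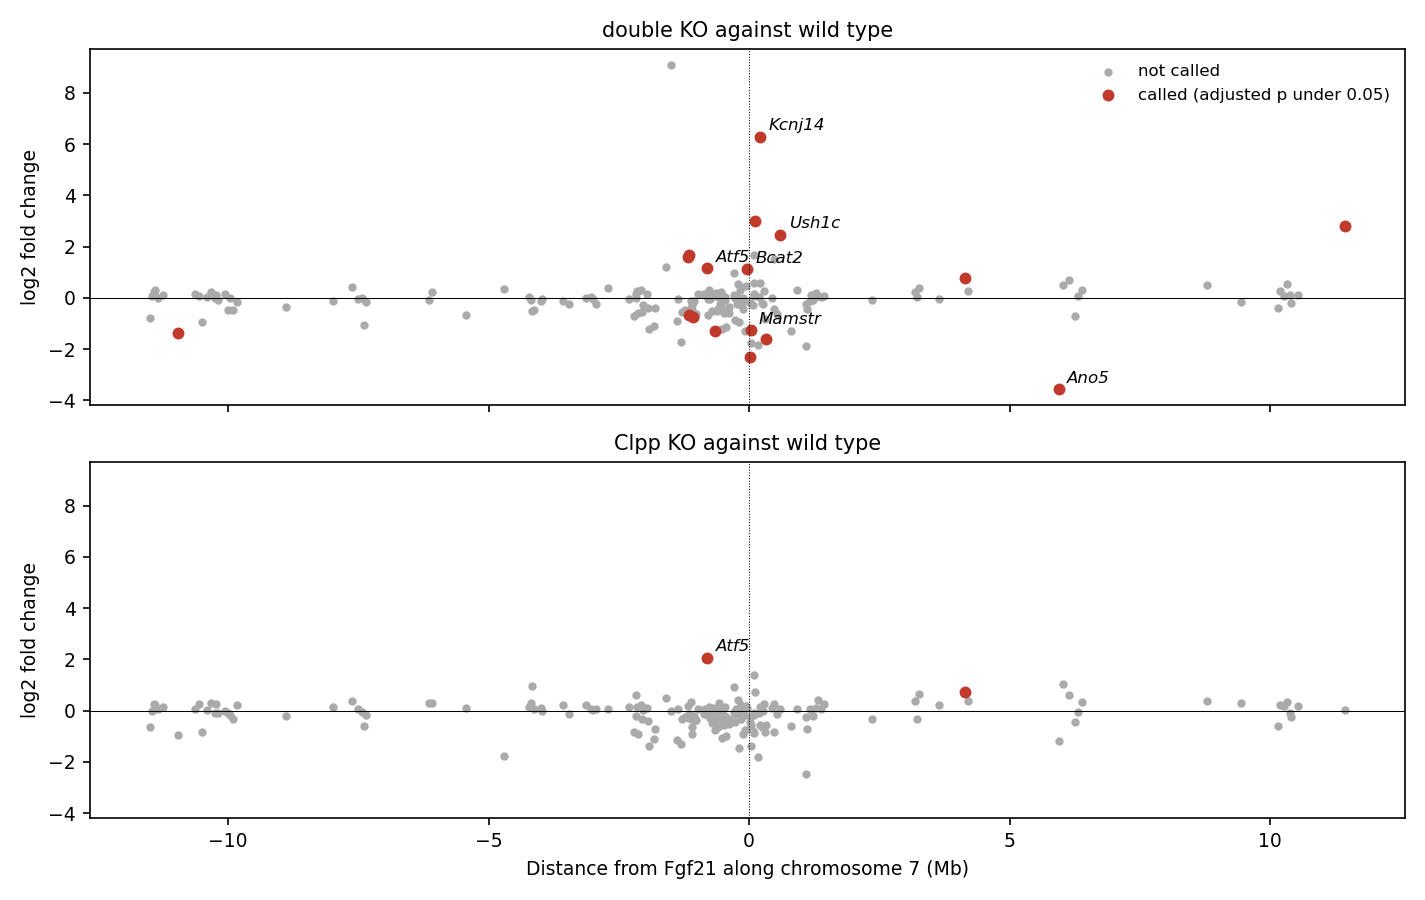
log2 fold change of each tested gene against its distance from Fgf21 along chromosome 7 (Mb), for double KO against wild type (top) and Clpp KO against wild type (bottom), which share the wild-type libraries. Called genes are red, and the top panel has 9 within 1 Mb where the bottom panel has 1, Atf5.

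The 12 largest falls by the naming rule were Sec14l5 (-2.44), Aldh1a3 (-2.22), Clpp (-2.02), Edn3 (-2.01), Ccdc114 (-1.62), Tmem35a (-1.49), Itga10 (-1.43), Shc2 (-1.40), Kctd15 (-1.38), Cpt1c (-1.31), Prss53 (-1.30) and Slc27a3 (-1.27). Aldh1a3 makes retinoic acid, Edn3 is an endothelin ligand and Itga10 a collagen-binding integrin. Aldh1a3 stood at 1.04, 2.13, 0.800 and 6.15 CPM in wild type and at 0.693, 0.515, 0.341 and 0.609 CPM in double KO, with wild-type replicates 2 and 4 the highest. Itga10 stood at 2.14, 6.31, 1.89 and 4.34 CPM in wild type and at 0.962 to 1.65 CPM in double KO, with the same 2 libraries highest. Besides Clpp and Ccdc114, the other 10 lost their call without wild-type replicates 2 and 4 (edgeR adjusted p = 0.066 to 0.468), and each also lost it on leaving out at least 1 single library. Atrial and white adipocyte marker sums were high in those same wild-type libraries. With the mean level of the atrial markers as a covariate, these 10 were also uncalled (edgeR adjusted p = 0.0731 for Tmem35a to 0.195 for Slc27a3). Aldh1a3 then stood at -1.39 and Itga10 at -0.92. The cause of these falls was not tested.

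Marker lists of other cell types held 2 calls, the neutrophil marker S100a8 and the skeletal muscle marker Acta1. Atrial cardiomyocyte markers had a median log2 fold change of -2.81 with none of 11 called, and it became 3.80 without wild-type replicates 2 and 4. Double KO replicate 1 alone was high among the libraries then left: Myl7, the atrial light chain, stood at 247 CPM there, with 1.32, 0.373 and 0.289 CPM in double KO replicates 2 to 4 and 1.21 and 1.16 CPM in replicates 1 and 3 of wild type. With that library left out as well, a choice made after the data were seen, the median was -0.52. White adipocyte markers had -4.14 with none of 7 called, and it became 0.88. Fibroblast markers had -0.68 with none of 10 called and summed levels of 1070 to 1374 CPM in double KO against 1305, 3444, 1299 and 2353 CPM in wild type. Erythroid markers summed to 637, 749, 1861 and 10961 CPM in double KO and 2496 to 7310 CPM in wild type, so double KO spanned the wild-type range. S100a8 fell by 2.69 ± 0.51 (edgeR adjusted p = 0.0136, 0.139 without wild-type replicates 2 and 4, and 0.0519 without double KO replicate 3), from levels under 1 CPM. Ucp1, the defining gene of brown fat, was at 0 in all double KO libraries and at 0.055, 2.05, 0.017 and 22.3 CPM in wild type.

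None of 36 complex I subunits, 42 subunits of complexes II to V or 52 mitochondrial ribosomal proteins was called, with medians of 0.02, 0.05 and 0.11 (-0.88, -0.85 and -0.76 on library size alone). Of 25 mitochondrial chaperones and proteases, Clpp was the one called, and its partner Clpx had a log2 fold change of 0.75. Mterf4, a factor of mitochondrial ribosome assembly, fell by 0.69 ± 0.16 (edgeR adjusted p = 0.0431, and 0.248 without wild-type replicates 2 and 4), and lost its call without any 1 of 6 libraries, all but wild-type replicates 1 and 3. All 24 genes of the citric acid cycle and pyruvate oxidation had positive log2 fold changes, with a median of 0.44 and no call, and the median became 0.07 without those 2 libraries and -0.39 on library size alone. Of 40 genes of fatty acid uptake and oxidation 36 were positive, 12 did not overlap between groups (30%, against 9.85% of all genes) and none was called (median 0.47, 0.23 without wild-type replicates 2 and 4, -0.40 on library size alone). Without those 2 libraries 1 of the 40 was called, lower in double KO, as were 24 of all 15540 genes tested.

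Other lists of heart biology were also without a called pattern. All 35 matrix and fibrosis genes had negative log2 fold changes, with a median of -0.76 and no call, and the median was -0.20 without wild-type replicates 2 and 4. None of 29 calcium handling and ion channel genes, 19 clock genes, 24 glycolytic genes, 21 genes of the endoplasmic reticulum unfolded protein response, 18 haem genes, 22 growth arrest and cell death genes or 22 cholesterol and fatty acid synthesis genes was called. Without wild-type replicates 2 and 4, 1 gene of the calcium and channel list was called lower and 1 haem gene higher. Of all 15540 genes tested then, 24 were lower and 124 higher. Of 20 fetal and stress genes of ventricular myocardium, the skeletal actin Acta1 was the one called. It stood at 87.7, 52.7, 80.2 and 155 CPM in wild type and 362, 294, 203 and 347 CPM in double KO, with no overlap, and rose by 1.68 ± 0.37 (edgeR adjusted p = 0.0326). Its log2 fold change was 1.84 and its edgeR adjusted p 0.0909 without wild-type replicates 2 and 4, and it also lost its call without any 1 of 4 libraries (wild-type replicate 2 and double KO replicates 1, 2 and 4).

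**Figure D5:**
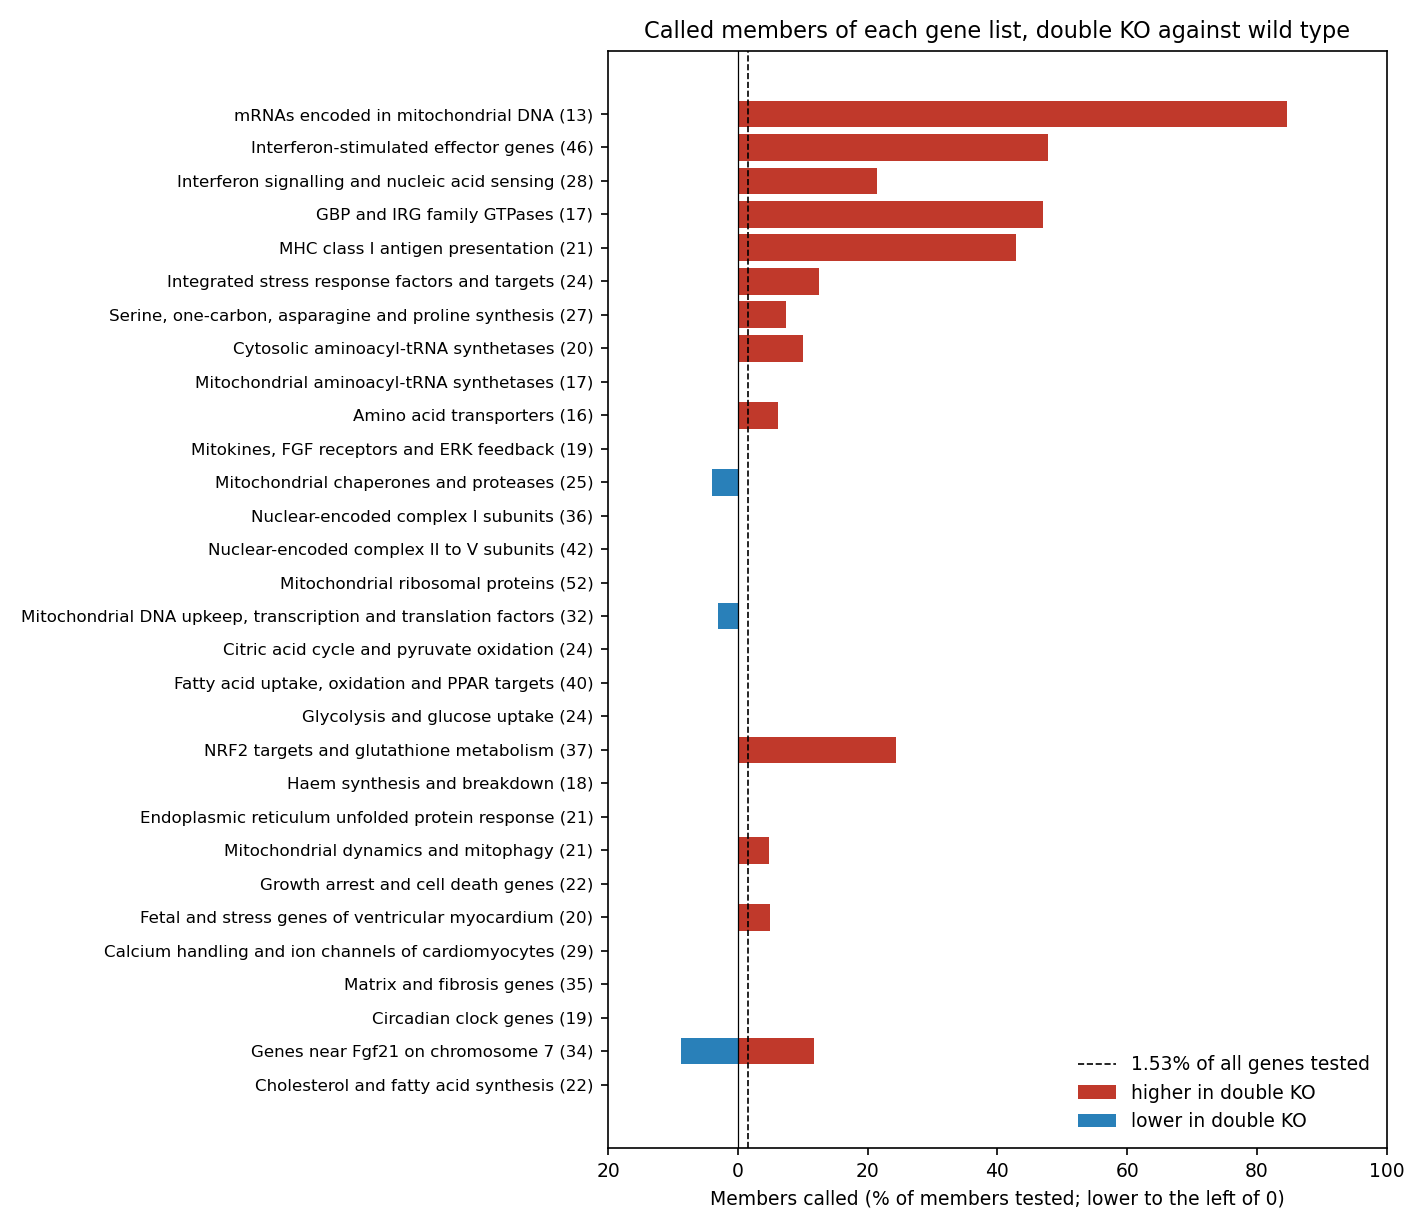
Percent of tested members called in each pathway list (number tested in brackets), higher in double KO to the right of 0 and lower to the left, with a dashed line at the 1.53% called over all genes. The mtDNA mRNAs, the 4 interferon lists and the NRF2 list reach the highest shares, and many lists hold no call.

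Against Clpp KO, double KO differed in 9 genes (0.059%): Kcnj14, its pseudogene Gm5522, Ush1c, Car11, Vmn2r3, mt-Nd3, Gm14659, Ftl1-ps1 and Glns-ps1. The call of mt-Nd3 ended when its copy Gm28438 was summed with it (0.57, edgeR adjusted p = 0.994). Vmn2r3, annotated as a vomeronasal receptor, stood at 0.275, 0.453, 0.272 and 0.287 CPM in wild type and 1.17, 1.37, 0.590 and 0.866 CPM in double KO. It rose over wild type by 1.62 ± 0.30 (edgeR adjusted p = 0.0105), against 3.70 in Clpp KO, and the direct difference was -2.08 (edgeR adjusted p = 0.00493). Ftl1-ps1, a ferritin pseudogene, stood at 1.98, 4.54, 1.31 and 4.38 CPM in wild type and at no more than 0.0641 CPM in double KO, while 76.7% of its 31-base stretches occur in other transcripts. The interaction, which asks whether the double KO differs from the sum of both single effects, called 0 genes (0%) by edgeR, with 299 at an unadjusted p under 0.05. DESeq2 called 3 and limma voom 1. By the smallest p the leading genes were Eps8l1, Nab1, Vmn2r3, Vps33b and Gm17538, with Vmn2r3 at -1.71 and an edgeR adjusted p of 1.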

How the data were processed

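The deposited table holds whole-number counts per gene, which the authors made from stranded messenger RNA libraries, per the labels' protocols. The submitters' processing notes name fastp 0.21.0, kallisto 0.46.1, edgeR 3.32.1, DESeq2 1.30.1, R 4.0.3 and GRCm38.p6, with no order of steps. Pseudo-aligned reads that fit several transcripts are divided by estimate, so near-identical copies are uncertain, and sharing was measured over 31-base stretches of GENCODE M21 transcripts.

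All 16 libraries (4 genotypes of 4) were fitted in edgeR 4.0.16 (R 4.3.3): filterByExpr (10 counts in at least 4 libraries and 15 in total), TMM factors, a robust quasi-likelihood test with 12 residual degrees of freedom, and a Benjamini-Hochberg threshold of 0.05 over 15255 genes. The common biological coefficient of variation was 0.249, and TMM factors ran from 0.674 to 1.83. Counts were simulated for this comparison over 15255 genes. Recovered were 20.9% of 67 genes changed 1.5-fold, 65.7% of 67 changed 2-fold and 98.5% of 66 changed 4-fold, with 2.38% false calls. The changed genes were drawn only from those with a mean of at least 1 CPM, so recovery below that level was not measured. Apart from these changes every library had the same mean per gene, and genes were drawn independently. The simulation thus held no shift like that of wild-type replicates 2 and 4, and its rates do not cover one.

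Genes were named by a rule: Clpp and Fgf21, the 12 largest changes each way among called genes with a mean of at least 1 CPM, no overlap and a symbol of their own, up to 4 called members per list or the 2 with the smallest p, and 5 genes of each other comparison. Some genes that the rule picks are not reported here. Further list members are given as examples chosen after their values were seen. Members and lists were chosen with earlier results of these data known. Alternatives were DESeq2 1.42.0, limma 3.58.1, other scalings and filters, a replicate block, an atrial covariate and left-out libraries.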

Additional observations from a re-analysis of the deposited data

Results flagged for a closer look

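Among 158 groups of 4 libraries checked (library totals, mtDNA shares, marker sums and called named genes), 14 had 1 library far from the other 3. Chance marks about 1 in 20 such groups.

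In wild type, replicate 2 stood apart in 6 of them. Its summed level of ventricular cardiomyocyte markers was low, at 31127 CPM with the next library at 51177.3 CPM, and its endocardial and lymphatic endothelium markers were high, at 179 CPM against a next value of 92.8 CPM. Replicate 2 was also the highest for Sec14l5 (14.5 CPM, next 3.06 CPM), Ifit3b (3.79 CPM, next 2.40 CPM), Tap1 (9.97 CPM, next 7.97 CPM) and Vmn2r3 (0.453 CPM, next 0.287 CPM). Wild-type replicate 4 was the highest for Edn3 (4.94 CPM, next 1.69 CPM) and Slc7a5 (6.37 CPM, next 3.46 CPM).

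In double KO, the summed level of atrial cardiomyocyte markers was 1557 CPM in replicate 1, with the next library at 284 CPM. Erythroid markers summed to 10961 CPM in replicate 4, against a next value of 1861 CPM. Replicate 2 was high for Igtp (85.6 CPM, next 38.2 CPM) and for neutrophil markers (1.77 CPM, next 1.15 CPM), and low for Cdh4 (7.01 CPM, next 11.2 CPM). Tmem35a was low in replicate 3, at 0.714 CPM against 2.45 CPM.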

How the results depend on the processing

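The number of called genes moved with the processing more than the direction of single genes did: the 233 calls (160 higher, 73 lower) became 966 (415 and 551) with DESeq2, 964 (566 and 398) with limma voom, 821 (288 and 533) with wild-type replicates 1 and 3 summed, 152 (125 and 27) with an atrial covariate, 148 (124 and 24) without wild-type replicates 2 and 4, 56 (50 and 6) with the 8 libraries alone, and 107 (92 and 15) without double KO replicate 1 and wild-type replicates 2 and 4, a choice made after seeing the data. Library size alone gave 13124 (85 and 13039), as its median of all genes was -0.92, and 42 of the 233 turned sign. No call turned sign under the other settings. Leaving out 1 library gave 129 to 1116 calls, 103 to 413 higher and 26 to 703 lower; without wild-type replicate 1 there were 870 and without wild-type replicate 3 there were 1116. The cause of these differences was not tested. The replicate block gave 164 calls (122 higher, 42 lower), 150 of them among the 233; same-numbered libraries did not deviate together (r = -0.10 to 0.07), so the numbers were not used as pairs. Calls of double KO against Clpp KO were 35 with DESeq2, 41 with limma voom and 15 without wild-type replicates 2 and 4, and interaction calls were 3, 1 and, with the atrial covariate, 1. The mtDNA difference was 27.5 points with wild-type replicates 1 and 3 summed, 19.5 without wild-type replicates 2 and 4, and 22.97 to 27.6 leaving out 1 library. For these settings the exact permutation p was 2 times the smaller tail, whereas the main p counted splits by absolute difference. It was 0.0571 leaving out 1 library, 0.0571 with wild-type replicates 1 and 3 summed and 0.133 without wild-type replicates 2 and 4. These are the smallest values that this form allows there.

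On library size alone the log2 fold change turned negative for Gm17538 (-0.48), Eif2ak2 (-0.0709), Nars (-0.39), Iars (-0.25), Rars2 (-0.44), Fgf1 (-0.31), Ndufs1 (-0.36), Sdha (-0.29), Uqcrc2 (-0.34), Mrps2 (-0.45), Pdp1 (-0.29), Ppargc1b (-0.15), Cpt1b (-0.41), Pygm (-0.33), Txnrd1 (-0.0206), Fth1 (-0.28), Dnajb9 (-0.36), Bcl2 (-0.58), Nr1d2 (-0.27), Mybpc3 (-0.37), Ttn (-0.50), Adgre1 (-0.44), Cd4 (-0.27) and Kdm5d (-0.35). With limma voom, and without wild-type replicates 2 and 4, it turned for Ndufs1 (-0.00076 and -0.043), Stard10 (0.62 and 0.79), Nppa (1.85 and 2.22), Pdpn (0.19 and 0.15), Cfd (0.92 and 1.83), Adig (0.31 and 0.15), Krt8 (0.71 and 0.62), Krt19 (2.59 and 2.69) and Kdm5d (-0.0708 and -0.0707). With the atrial covariate Nppa turned to 1.05 and Krt19 to 0.93, and Vps33b ran from -0.21 to 0.085 leaving out 1 library, positive without double KO replicate 2. Of these, Eif2ak2, Nars, Iars and Txnrd1 had been called.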
